A study of Mus musculus with 2 samples.

Results

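Ccr7, Ccr4 and Ccr8 are 3 CC chemokine receptors, and Ccl1, Ccl17 and Ccl22 are 3 ligands for Ccr8 and Ccr4. These 6 genes were taken by symbol, and all 6 were found among the 55401 genes of a single-cell RNA-seq matrix. The matrix came from mouse lung leukocytes sorted by flow cytometry as live CD45+ cells, 7 weeks after a first urethane dose. Urethane is a chemical carcinogen used to give mice lung tumours. The labels give 1 Siah1a/2 KO sample, from mice mutant for a pair of RING ubiquitin ligases, and 1 WT sample, both exposed to urethane. Age, sex, strain, the nature of the mutant alleles and the number of animals behind a sample are not given in the sources used here. The matrix pools both samples. Its barcodes carry the suffix 2 or 1, called library 2 and library 1 here, and no label ties a suffix to a genotype, so no genotype was compared and every value is given by library. With 1 library for each suffix there is no replicate error, and all intervals below are 95% intervals that cover counting error only.

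Chemokine receptors of this family are G protein-coupled receptors that guide leukocytes along gradients of secreted chemokines. Ccr7 takes naive and central memory T cells, B cells and matured dendritic cells to lymph nodes, towards Ccl19 and Ccl21. Ccr4 marks skin- and lung-homing, type 2 helper and regulatory T cells and binds Ccl17 and Ccl22, which are made by dendritic cells and some macrophages. Ccr8 marks effector regulatory T cells in tumours, and in the mouse it binds Ccl1, a product of activated T cells and mast cells, and Ccl8.

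After a filter for at least 500 detected genes and at most 10% mitochondrial UMIs, 6113 barcodes of library 2 and 8066 of library 1 were kept, with medians of 7875 UMIs in library 2 and 8661 in library 1. Cells were sorted into classes by UMI minimums on marker genes, none of them a member, and 15 of the 19 classes held at least 50 cells in each library. Of 39 checks on markers that a gate did not use, 34 were higher inside the class than outside it in both libraries. The 5 failures were T cell receptor constant genes in gamma-delta-like cells (Trac and Trbc1) and in type 17-like cells (Trac, Trbc1 and Trbc2). A further 436 barcodes of library 2 and 526 of library 1 met gates of 2 lineages, as pairs of cells in a droplet do, and were kept apart. These were deep, with medians of 17914.5 UMIs in library 2 and 20119 in library 1. The 2 libraries shared 11 barcode sequences. Siah1a had 12.7 CPM (counts per 1000000 UMIs) in library 2 and 8.48 CPM in library 1, and Siah2 had 27.5 CPM in library 2 and 17.9 CPM in library 1. Neither gene was near 0 in a library, and reads at the 3' end need not fall in a deleted part of a gene, so these values check no label.

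**Figure D1:**
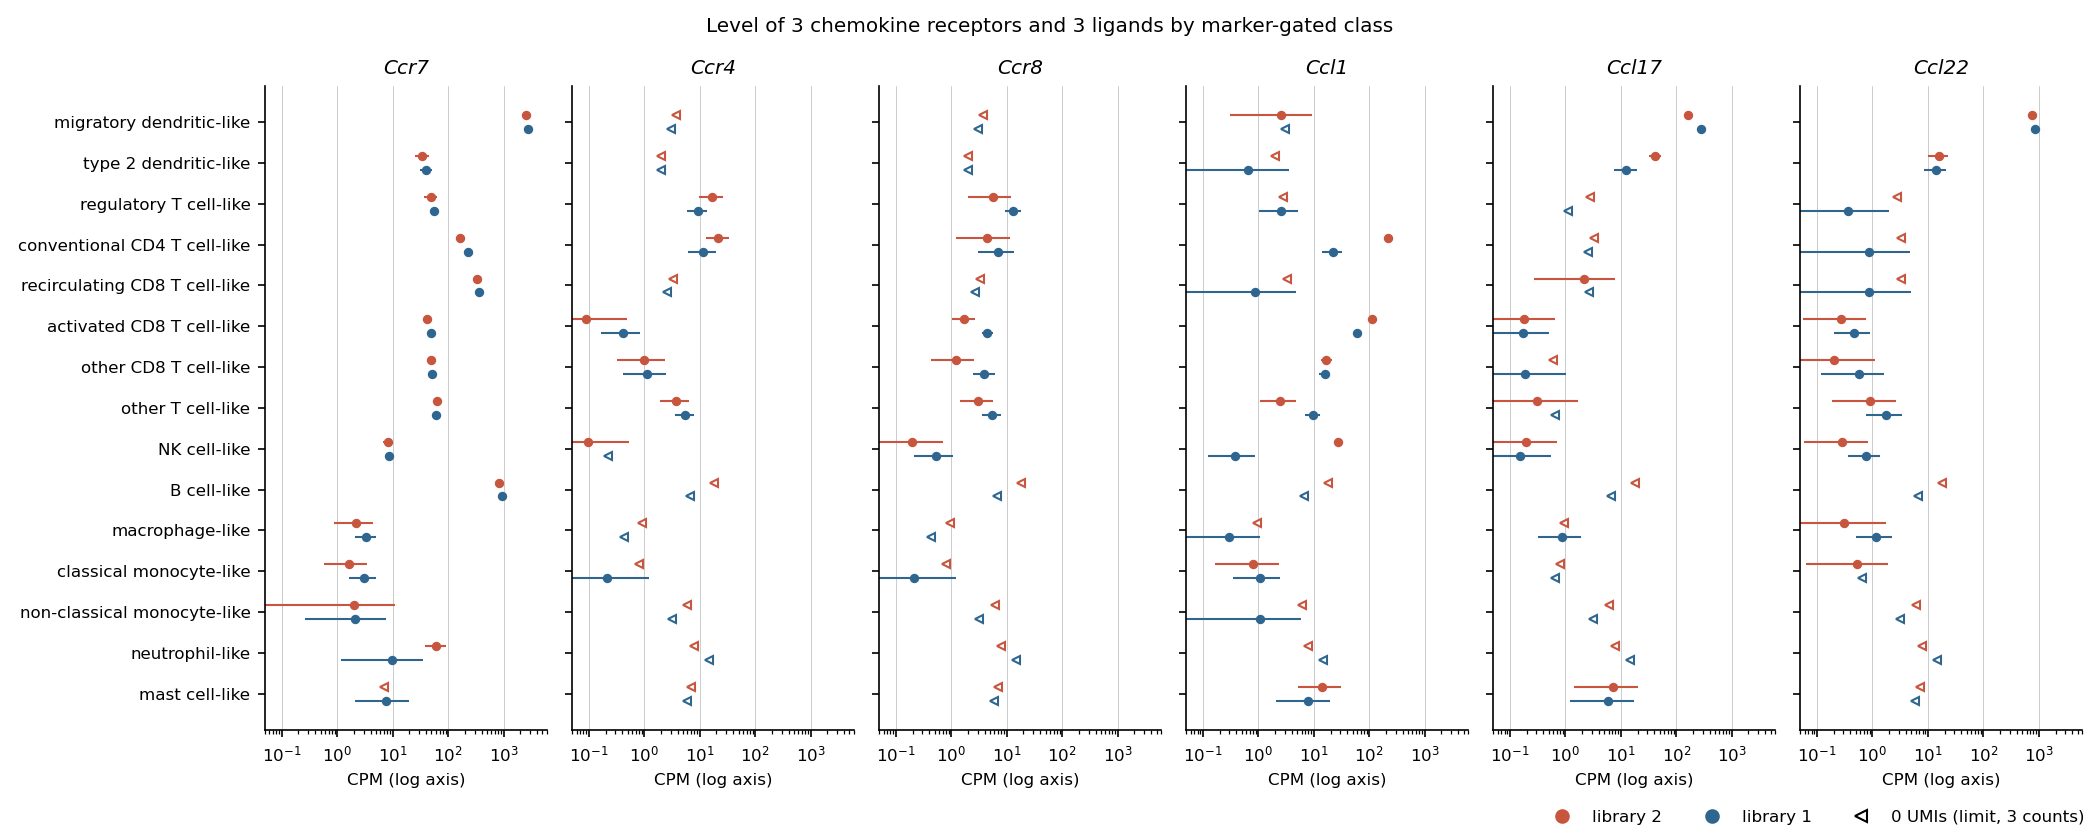
CPM of each gene (log axis) in the 15 marker-gated classes, library 2 in red above library 1 in blue, with exact Poisson 95% intervals. Open triangles mark 0 UMIs and stand at the level that 3 counts would give. Ccr7 runs over several lymphocyte classes and peaks in migratory dendritic-like cells, where Ccl17 and Ccl22 also have their highest levels, while Ccr4 and Ccr8 lie in T cell classes.

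Ccr7 was the most widely seen of the 6, with a UMI in 9.77% of the kept cells of library 2 and 11.2% of library 1. Its level was highest in migratory dendritic-like cells, gated on Fscn1, Cacnb3, Nudt17, Apol7c and Il4i1, genes of dendritic cells that have matured and left their post. There it reached 2518 CPM (2409 to 2631) in the 58 cells of library 2 and 2708 CPM (2607 to 2812) in the 75 cells of library 1. A Ccr7 UMI was present in 57 of the 58 cells (98.3%) of library 2 and in 69 of the 75 cells (92%) of library 1. These few cells, under 1% of either library, held 42.9% of the Ccr7 UMIs kept in library 2 and 40.3% of those in library 1.

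B cell-like cells came next, at 822 CPM (690 to 971) in library 2 and 915 CPM (829 to 1008) in library 1. These cells were shallow, with medians of 3174 UMIs in library 2 and 3291 in library 1, and still 78.4% of them in library 2 and 84.4% in library 1 had a Ccr7 UMI. Recirculating CD8 T cell-like cells, gated on markers of recirculation that include Lef1, S1pr1 and Tcf7, followed at 336 CPM (299 to 376) in library 2 and 356 CPM (322 to 392) in library 1. Conventional CD4 T cell-like cells came after these, at 166 CPM (140 to 195) in library 2 and 224 CPM (197 to 253) in library 1. Each of these 4 classes was apart from the next in the order, with intervals that did not overlap in either library.

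Below them Ccr7 formed a plateau over 4 further T cell classes. Other T cell-like cells had 63.7 CPM in library 2 and 60 CPM in library 1, and regulatory T cell-like cells (Foxp3 gate) 48.1 CPM in library 2 and 56.1 CPM in library 1. Other CD8 T cell-like cells had 48.3 CPM in library 2 and 50.2 CPM in library 1, and activated CD8 T cell-like cells (Pdcd1, Havcr2 and Lag3 gate) 42.3 CPM in library 2 and 48.1 CPM in library 1. No neighbours within this plateau were apart in both libraries. The small gamma-delta T cell-like class had 93 CPM (64.4 to 130) in 49 cells of library 2 and 68 CPM (48.8 to 92.3) in 73 cells of library 1. Type 17 T cell-like cells had 0 Ccr7 UMIs in 22 cells of library 2, which allows up to 19.3 CPM, and 10.5 CPM (1.27 to 38) from 2 UMIs in 23 cells of library 1. NK cell-like cells were lower, at 8.35 CPM in library 2 and 8.66 CPM in library 1, and macrophage-like cells lower again, at 2.16 CPM in library 2 and 3.35 CPM in library 1. Classical monocyte-like cells had 1.6 CPM in library 2 and 3 CPM in library 1, and non-classical monocyte-like cells 1 UMI in library 2 and 2 in library 1. Mast cell-like cells had 0 UMIs in library 2, which allows up to 7.07 CPM, and 4 UMIs in library 1.

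A deeper cell shows a gene more often, so shares were also taken after thinning each cell to 3000 UMIs, which left out 456 shallower cells of library 2 and 567 of library 1. The share of cells with a Ccr7 UMI was then 98.3% in library 2 and 90.3% in library 1 among migratory dendritic-like cells, and among B cell-like cells 86.7% in library 2 and 85.7% in library 1. Among recirculating CD8 T cell-like cells it was 43.4% in library 2 and 44.1% in library 1. In activated CD8 T cell-like cells it was 4.89% in library 2 and 5.7% in library 1. In macrophage-like cells it was 0.76% in library 2 and 1.15% in library 1, and in classical monocyte-like cells 0.238% in library 2 and 0.943% in library 1. The 5 classes with the highest levels kept their order in these shares in both libraries, and the T cell plateau stood above both myeloid shares.

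Some Ccr7 levels rested on 1 cell. In type 2 dendritic-like cells, gated on Cd209a, Clec10a, Flt3 and Mgl2, Ccr7 had 33.8 CPM in library 2 and 39.9 CPM in library 1, but 29 of the 50 UMIs of library 2 and 35 of the 61 of library 1 came from 1 cell in each. Without that cell the levels were 14.4 CPM in library 2 and 17.1 CPM in library 1. Neutrophil-like cells had 60.5 CPM in library 2 and 9.75 CPM in library 1, and 20 of the 23 UMIs of library 2 were in 1 cell. The classes of under 50 cells are given as values only. Type 1 dendritic-like cells had 0 UMIs in 16 cells of library 2, which allows up to 9.29 CPM, and 29 UMIs in 48 cells of library 1, 19 of them in 1 cell. Plasmacytoid dendritic-like cells had 0 in both libraries.

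In activated and other CD8 T cell-like cells, a small set of genes differed in frequency between cells with and without a Ccr7 UMI in the same direction in both libraries. Other genes were read in cells thinned to 3000 UMIs, since activated cells with Ccr7 were deeper than those without it, with medians of 10423 against 8237 UMIs in library 2 and 11968 against 9868.5 in library 1. The genes named first here were chosen after their values were seen, among those with the widest margins. Gzmb, a cytotoxic protease of effector cells, was found in 56.5% of activated CD8 T cell-like cells with Ccr7 and 89.7% of those without it in library 2, and in 59.1% of those with it and 82.9% of those without it in library 1. Gadd45b, an early stress- and NF-kB-induced gene, went the other way, with 63% of cells with Ccr7 and 28.3% of cells without it in library 2, and 56.2% with and 25.6% without it in library 1. Xcl1, a chemokine that attracts type 1 dendritic cells, was found in 35.9% with and 10.9% without Ccr7 in library 2, and in 43.8% with and 18.5% without it in library 1. Rel, an NF-kB subunit, and Tnfrsf4 (OX40), a costimulatory receptor, were likewise more frequent with Ccr7, and Ccl4, an inflammatory chemokine, less frequent.

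Over all genes found in at least 10% of the cells of some group, 0.814% differed by at least 10 percentage points the same way in both libraries. Of 10 genes of recirculating T cells (S1pr1, Klf2, Lef1, Tcf7 and others), 0 did so in activated CD8 T cell-like cells, and of 12 other T cell chemokine receptors 1 did, Cxcr6, a receptor of tissue-resident T cells. In other CD8 T cell-like cells the background was 1.42%. There Klf2, the transcription factor behind recirculation, was in 38.1% of cells with Ccr7 and 22.7% without it in library 2, and in 40.4% with and 23.6% without it in library 1. The chemokine receptors Cxcr6 and Ccr2 were each less frequent with Ccr7, and Cxcr4 more frequent. Gzmb was in 49.2% with and 85.1% without Ccr7 in library 2, and in 45.6% with and 80.3% without it in library 1. In conventional CD4 T cell-like cells the background was 3.24%, and 1 of the 10 recirculation genes passed, Tcf7, with 56.7% of cells with Ccr7 and 22.7% without it in library 2, against 41.7% with and 31.3% without it in library 1. Ccr2 passed in the other direction, at 26.7% with and 46.4% without Ccr7 in library 2, and 13.9% with and 41.7% without it in library 1.

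**Figure D2:**
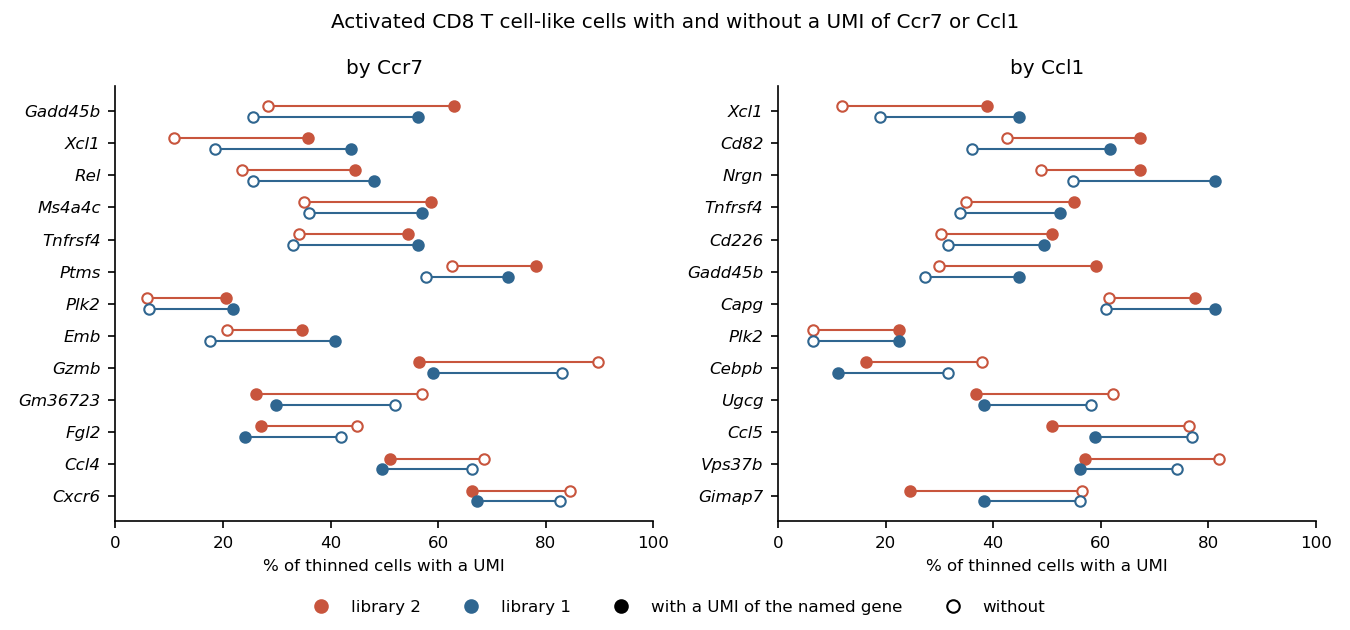
Share of activated CD8 T cell-like cells, each thinned to 3000 UMIs, with a UMI of the gene on the left axis, in cells with (filled) and without (open) a UMI of Ccr7 (left panel) or Ccl1 (right panel), library 2 in red above library 1 in blue. The 8 genes more frequent and the 5 less frequent by the widest margin in both libraries are drawn. With Ccr7, Gzmb is in 56.5% of cells of library 2 and 59.1% of library 1, and without it in 89.7% of cells of library 2 and 82.9% of library 1.

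Ccr4 was scarce, with 72 UMIs in 55 kept cells of library 2 and 115 UMIs in 90 kept cells of library 1. Its levels were highest in CD4 lineage classes. Conventional CD4 T cell-like cells had 21.1 CPM (12.7 to 33) in library 2 and 11.3 CPM (6.02 to 19.3) in library 1, from 19 UMIs in library 2 and 13 in library 1. Regulatory T cell-like cells had 16.6 CPM (9.86 to 26.3) in library 2 and 9.11 CPM (5.89 to 13.4) in library 1, from 18 UMIs in library 2 and 25 in library 1.

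The conventional and regulatory classes were not apart from each other. A Ccr4 UMI was found in 9.21% of conventional and 8.27% of regulatory cells in library 2, and in 6.21% of conventional and 7.59% of regulatory cells in library 1. Activated CD8 T cell-like cells had 1 UMI in 1070 cells of library 2 and 7 in 1355 cells of library 1, which is 0.0888 CPM (0.00225 to 0.495) in library 2 and 0.41 CPM (0.165 to 0.844) in library 1. These CD4 classes together held 51.4% of the kept Ccr4 UMIs in library 2 and 33% in library 1. Other T cell-like cells had 12 UMIs at 3.66 CPM in library 2 and 25 UMIs at 5.44 CPM in library 1, and barcodes with gates of 2 lineages had 9 UMIs in library 2 and 25 in library 1. In the small type 17 T cell-like class Ccr4 had 4 UMIs in 22 cells of library 2 and 7 UMIs in 23 cells of library 1.

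Ccr4 had 0 UMIs in either library in both dendritic classes compared and in recirculating CD8, B, macrophage, non-classical monocyte, neutrophil and mast cell-like cells. The limits that 3 counts allow in the dendritic classes ran up to 3.77 CPM in library 2 and 2.98 CPM in library 1. In B cell-like cells, with few UMIs in all, the limit was as high as 18 CPM in library 2 and 6.71 CPM in library 1. In neutrophil-like cells of library 1 it was 14.6 CPM. A level like that of regulatory T cell-like cells was thus not detectable at this depth in B cell-like cells of library 2. The same holds for neutrophil-like cells of library 1.

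Ccr8 had 64 UMIs in 61 kept cells of library 2 and 202 UMIs in 179 kept cells of library 1, with a median of 1 UMI to a positive cell in both. Regulatory T cell-like cells had 5.55 CPM (2.04 to 12.1) in library 2 and 13.1 CPM (9.19 to 18.2) in library 1, with a UMI in 3.76% of 133 cells in library 2 and 11.7% of 290 cells in library 1. Activated CD8 T cell-like cells had 1.69 CPM (1.02 to 2.64) in library 2 and 4.45 CPM (3.5 to 5.57) in library 1. That class held 29.7% of the Ccr8 UMIs of library 2 and 37.6% of those of library 1, more than the regulatory class, which held 9.38% in library 2 and 17.8% in library 1.

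The other T cell classes had values of the same size. Conventional CD4 T cell-like cells had 4.45 CPM in library 2 and 6.96 CPM in library 1, other T cell-like cells 3.05 CPM in library 2 and 5.44 CPM in library 1, and other CD8 T cell-like cells 1.19 CPM in library 2 and 3.94 CPM in library 1. NK cell-like cells had 0.192 CPM in library 2 and 0.527 CPM in library 1. Recirculating CD8 T cell-like cells had 0 UMIs, which allows up to 3.31 CPM in library 2 and 2.62 CPM in library 1. Ccr8 also had 0 UMIs in either library in both dendritic classes compared and in B, macrophage, non-classical monocyte, neutrophil and mast cell-like cells. In library 2 the limits that 3 counts allow were 18 CPM in B and 7.89 CPM in neutrophil-like cells. They were 7.07 CPM in mast and 6 CPM in non-classical monocyte-like cells. Each is above the 5.55 CPM of regulatory T cell-like cells in library 2. For neutrophil-like cells of library 1 the limit was 14.6 CPM, above the regulatory 13.1 CPM. A Ccr8 level like the regulatory one could thus have been missed in these classes and libraries. The log2 ratio of regulatory over activated CD8 T cell-like cells was 1.80 (0.10 to 3.10) in library 2 and 1.57 (0.95 to 2.15) in library 1. Without the cell with the most Ccr8 UMIs it was 1.43 (-0.73 to 2.92) in library 2, an interval that includes 0, and 1.55 (0.91 to 2.15) in library 1.

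Few cells had a UMI of both Ccr4 and Ccr8, each of which was itself rare. Of the regulatory T cell-like cells, 1 of 133 had both in library 2, where 11 had Ccr4 and 5 had Ccr8, and 3 of 290 had both in library 1, where 22 had Ccr4 and 34 had Ccr8. Ccr4 was thus in 20% of Ccr8-positive and 7.81% of the other regulatory cells of library 2, and in 8.82% of Ccr8-positive and 7.42% of the others of library 1. At a median of 1 UMI to a positive cell, cells that carry both transcripts can be missed.

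Ccl1 differed from the receptors in how its UMIs were spread. It had 2536 UMIs in 117 kept cells of library 2 and 1689 UMIs in 188 kept cells of library 1, with a median of 2 UMIs to a positive cell in library 2 and 1 in library 1 and a maximum of 277 in library 2 and 177 in library 1. The 5 cells with most Ccl1 held 49.9% of its UMIs in library 2 and 33.7% in library 1, while the 5 cells with most Ccr7 held 8.95% of the Ccr7 UMIs in library 2 and 7.94% in library 1. Of the Ccl1 UMIs, 50% came from 6 cells in library 2 and 10 in library 1. Library 2 thus had more Ccl1 UMIs in fewer cells. UMIs of 1 cell are not independent, and the counting intervals for Ccl1 do not cover the spread between cells.

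**Figure D3:**
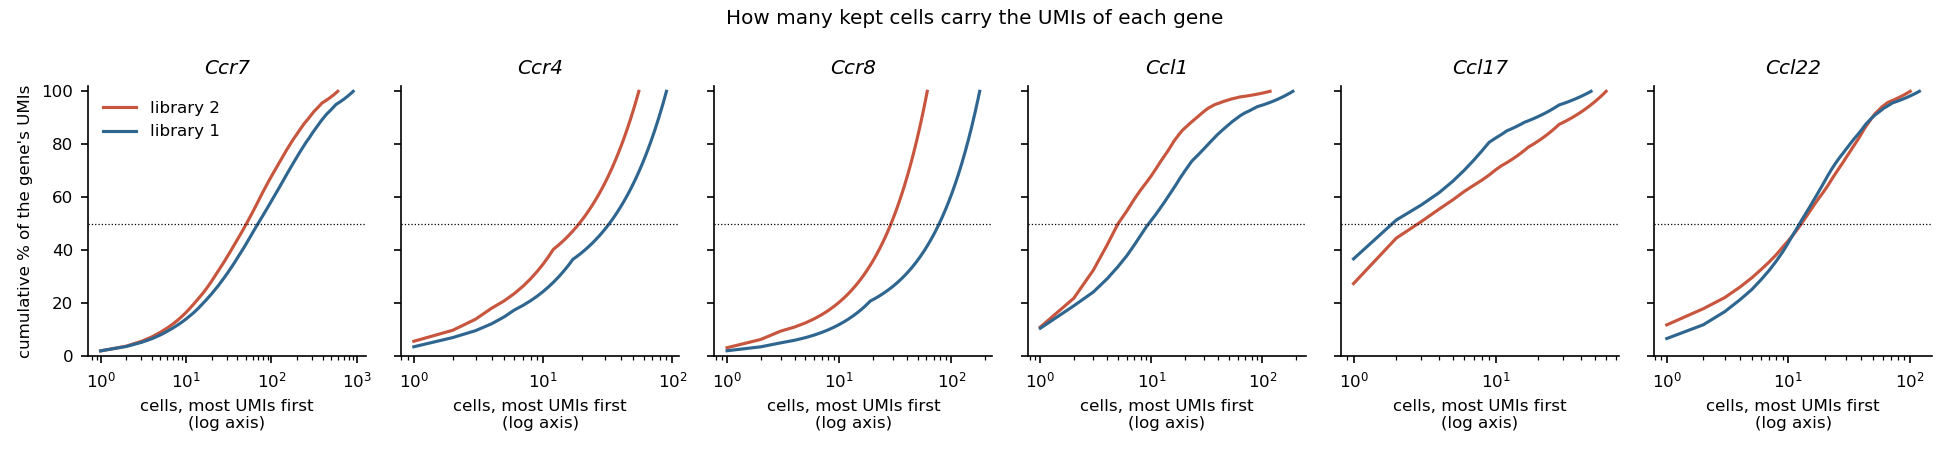
Cumulative percent of the kept UMIs of each gene (vertical axis) against the number of kept cells, ordered from most to fewest UMIs (log axis), for library 2 in red and library 1 in blue. The dotted line is at 50%. It is crossed by 6 cells in library 2 and 10 in library 1 for Ccl1, by 3 cells in library 2 and 2 in library 1 for Ccl17, and by 51 cells in library 2 and 70 in library 1 for Ccr7.

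Of the classes, activated CD8 T cell-like cells held the largest share of Ccl1, 49.7% of its kept UMIs in library 2 and 60.6% in library 1. Their level was 112 CPM (106 to 118) in library 2 and 59.9 CPM (56.3 to 63.6) in library 1. The share of cells ran the other way, with a Ccl1 UMI in 50 of 1070 cells, 4.67% (3.49 to 6.11), in library 2 and in 107 of 1355 cells, 7.9% (6.52 to 9.46), in library 1. After thinning, these shares were 2.73% in library 2 and 3.92% in library 1. Recirculating CD8 T cell-like cells had 0 UMIs in library 2 and 1 in library 1.

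In other classes much of the Ccl1 came from single cells. Conventional CD4 T cell-like cells had 219 CPM in library 2 and 21.7 CPM in library 1, with 113 of 197 UMIs of library 2 in 1 cell, and a UMI in 7 of 152 cells of library 2 and 5 of 177 of library 1. NK cell-like cells had 26.9 CPM in library 2 and 0.376 CPM in library 1, with 243 of the 280 UMIs of library 2 in 1 cell. Other T cell-like cells had 2.44 CPM in library 2 and 9.57 CPM in library 1, with 31 of the 44 UMIs of library 1 in 1 cell. Other CD8 T cell-like cells had 16.9 CPM in library 2 and 15.7 CPM in library 1, and regulatory T cell-like cells 0 UMIs in library 2 and 7 in library 1, in 7 cells. Mast cell-like cells, a known source of Ccl1, had 14.1 CPM (5.19 to 30.8) in library 2 and 7.71 CPM (2.1 to 19.7) in library 1. These levels came from 6 UMIs in 67 cells of library 2 and 4 in 76 cells of library 1, never more than 2 to a cell. The barcodes with gates of 2 lineages held 690 Ccl1 UMIs in library 2 and 466 in library 1, and the barcode with the most Ccl1 of each library, 277 UMIs in library 2 and 177 in library 1, was among them.

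Some genes stood apart in activated CD8 T cell-like cells with a Ccl1 UMI as they did in those with Ccr7, and the 3 given first were likewise chosen after their values were seen. Xcl1 was in 38.8% of cells with Ccl1 and 11.8% of those without it in library 2, and in 44.9% with and 19% without it in library 1. Gadd45b was in 59.2% with and 30% without it in library 2, and in 44.9% with and 27.3% without it in library 1. The chemokine Ccl5 was less frequent, at 51% with and 76.3% without Ccl1 in library 2, and 58.9% with and 77% without it in library 1. The share of genes at least 10 points apart in both libraries was 1.74%.

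Of 19 genes of effector regulatory T cells, 3 were more frequent in cells with Ccl1 by that margin and 2 less frequent. The 3 were costimulatory receptors of the TNF family. Tnfrsf9 (4-1BB) was in 79.6% with and 51.8% without Ccl1 in library 2, and in 69.2% with and 53.7% without it in library 1. Tnfrsf4 was in 55.1% with and 34.9% without it in library 2, and in 52.3% with and 33.9% without it in library 1, and Tnfrsf18 (GITR) also passed. The 2 less frequent genes were Ctla4, an inhibitory receptor, and Ikzf2, a transcription factor. The shares of Ccr7 and Ccr8 that follow are from cells not thinned. Cells with Ccl1 were deeper, with medians of 8663.5 against 8268 UMIs in library 2 and 11282 against 10123 in library 1. The part of depth in these shares was not tested. Ccr7 was detected in 11 of the 50 Ccl1-positive activated cells of library 2 (22%) and in 7.94% of the others, and in 23 of the 107 of library 1 (21.5%) and in 9.21% of the others. Ccr8, the receptor of Ccl1, was in 2 of the 50 positive cells of library 2 (4%) and in 1.57% of the others, and in 10 of the 107 of library 1 (9.35%) and in 4.65% of the others.

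Ccl22 marked the migratory dendritic-like class. It had 753 CPM (694 to 816) there in library 2 and 842 CPM (786 to 901) in library 1, and these cells held 71.8% of its kept UMIs in library 2 and 77.5% in library 1. A Ccl22 UMI was in 51 of 58 cells (87.9%) of library 2 and 53 of 75 cells (70.7%) of library 1, and after thinning in 72.4% in library 2 and 56.9% in library 1. Type 2 dendritic-like cells had 15.6 CPM (9.87 to 23.4) in library 2 and 13.7 CPM (8.5 to 21) in library 1, apart from the migratory class above and from the next class in both libraries. Macrophage-like cells, which in other settings can make Ccl22, had 0.309 CPM in library 2 and 1.17 CPM in library 1, and activated CD8 T cell-like cells 0.266 CPM in library 2 and 0.468 CPM in library 1.

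Ccl17 was highest in the same class but in fewer of its cells. Migratory dendritic-like cells had 162 CPM (135 to 193) in library 2 and 275 CPM (244 to 310) in library 1, with a UMI in 18 of 58 cells (31%) of library 2 and 19 of 75 cells (25.3%) of library 1. In library 2, 70 of the 129 UMIs were in 1 cell, and in library 1, 135 of the 277, so that without that cell the levels were 75.7 CPM in library 2 and 144 CPM in library 1. Type 2 dendritic-like cells had 41.3 CPM (31.6 to 53) in library 2 and 12.4 CPM (7.48 to 19.4) in library 1, with a UMI in 10 of 103 cells of library 2 and 4 of 116 of library 1. Here 44 of the 61 UMIs of library 2 and 14 of the 19 of library 1 were in 1 cell. Kept cells that met no gate held 25 Ccl17 UMIs in each library, and 22 Ccl22 UMIs in library 2 and 60 in library 1.

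Nearly every Ccl17-positive migratory dendritic-like cell also had Ccl22, 17 of 18 in library 2 and 17 of 19 in library 1. Among the cells without Ccl17, Ccl22 was in 85% in library 2 and 64.3% in library 1. The Ccl17-positive cells were deeper, with medians of 15231.5 UMIs, against 11255 in the others, in library 2 and 14461, against 11031.5 in the others, in library 1, and the part of depth in this overlap was not tested. In type 2 dendritic-like cells 4 of the 10 Ccl17-positive cells of library 2 also had Ccl22, and 0 of the 4 of library 1.

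Ccl17 and Ccl22 lie in the same region of mouse chromosome 8, on the plus strand, at chr8:94810453-94812036 for Ccl17 and chr8:94745590-94751699 for Ccl22 (GRCm38, GENCODE). Ccl1 lies on the minus strand at chr11:82176657-82305690. That span includes a long transcript not annotated as coding, while both protein-coding transcripts start at position 82179812, the start used here. No other annotated gene overlaps any of the 6. Ccr7 is at chr11:99144196-99155077, Ccr4 at chr9:114490316-114504916 and Ccr8 at chr9:120092114-120094906. RefSeq promoter windows (GRCm38.p6) were found for 5 of the 6, all but Ccr7. Those of the ligands are shown 5′ to 3′ on the strand of the gene, because the levels of Ccl17 and Ccl22 are alike across the classes while that of Ccl1 is not. The Ccl1 window is chr11:82179813-82180062 on the minus strand, that of Ccl17 is chr8:94810203-94810452 on the plus strand, and that of Ccl22, ended before the first annotated exon, is chr8:94745434-94745589 on the plus strand. Capitals mark matches, searched on both strands, to the consensus motif of NF-kB, to that of STAT6 (TTCNNNNGAA) and to that of STAT5 (TTCNNNGAA).
Ccl1: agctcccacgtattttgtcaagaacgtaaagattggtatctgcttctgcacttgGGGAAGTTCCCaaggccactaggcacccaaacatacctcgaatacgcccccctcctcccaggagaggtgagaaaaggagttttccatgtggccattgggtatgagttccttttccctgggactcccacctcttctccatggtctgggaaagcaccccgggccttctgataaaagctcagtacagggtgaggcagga
Ccl17: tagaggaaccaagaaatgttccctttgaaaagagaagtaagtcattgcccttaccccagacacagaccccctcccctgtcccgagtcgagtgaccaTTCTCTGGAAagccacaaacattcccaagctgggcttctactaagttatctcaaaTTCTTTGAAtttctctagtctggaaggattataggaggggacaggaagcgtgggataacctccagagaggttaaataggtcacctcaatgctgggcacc
Ccl22: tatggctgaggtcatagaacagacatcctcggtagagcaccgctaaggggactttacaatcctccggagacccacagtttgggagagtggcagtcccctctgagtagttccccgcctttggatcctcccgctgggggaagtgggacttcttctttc

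In Ccl1 the capitals are 2 overlapping NF-kB matches, from 196 to 186 bases before the start. In Ccl17 they are a STAT6 match from 154 to 145 and a STAT5 match from 99 to 91 bases before the start. The search covered the whole 250 bases before the start as RefSeq gives it, also the bases in an annotated exon that are not printed, and Ccl22, Ccr4 and Ccr8 had 0 matches there. Of all 32851 promoter windows of this length, 7.25% held an NF-kB match, 5.85% a STAT6 match and 7.02% a STAT5 match. A match describes letters in a window and no binding was measured.

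A part of Ccl17 lay outside the kept cells. Of its UMIs, 89 of 345 (25.8%) in library 2 and 68 of 436 (15.6%) in library 1 were in barcodes that the cell filter left out. For Ccr7 that share was 1.6% in library 2 and 1.04% in library 1, and for Ccl22 4.79% in library 2 and 1.44% in library 1. The left-out barcodes with Ccl17 or Ccl22 numbered 27 of 366 in library 2 and 25 of 456 in library 1, with medians of 610 UMIs in library 2 and 603 in library 1, and up to 18 Ccl17 UMIs in a barcode of library 2 and 11 in library 1.

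The deepest of these barcodes had 834 UMIs in library 2 and 4001 UMIs in library 1. The part of the deepest barcode in the values below was not tested. As a group, the left-out barcodes with Ccl17 or Ccl22 were rich in genes of antigen-presenting cells. Cd74, the invariant chain of antigen presentation, had 31990 CPM in them and 2496 CPM in the other left-out barcodes of library 2, and 18411 CPM in them and 2246 CPM in the others of library 1. Cst3, a cystatin abundant in dendritic cells, had 23978 CPM in them and 974 CPM in the others of library 2, and 21900 CPM in them and 1234 CPM in the others of library 1. Ccr7 had 1246 CPM (21 UMIs) in library 2 and 1020 CPM (19 UMIs) in library 1. Fscn1 had 119 CPM (2 UMIs) in them and 29.4 CPM in the others of library 2. In library 1 it had 429 CPM (8 UMIs) in them and 13 CPM in the others. Il12b and Mgl2 were also higher in them in both libraries, from 16 and 10 UMIs in library 2 and 6 and 2 UMIs in library 1. C1qa, a gate gene of macrophage-like cells, was lower in them in library 2 and higher in library 1. Hbb-bs, a haemoglobin of red cells, was at 0 in them in both libraries, and Cd3e had 1 UMI in library 2 and 0 in library 1. S100a9, a neutrophil gene, was also higher in them, at 831 CPM against 235 CPM in the other left-out barcodes of library 2 and 1127 CPM against 207 CPM in those of library 1. They were not named as a cell type, and are in none of the classes above.

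Between the libraries, a gene and class pair was compared where both sums together reached 50 UMIs, and called where the ratio was past 2 times with an interval that excluded no change. This gave 19 pairs, and 5 were called. The share of all genes called, in either direction, was 3.69% in migratory dendritic-like, 1.96% in type 2 dendritic-like, 1.96% in regulatory T, 2.43% in conventional CD4 T, 1.9% in recirculating CD8 T, 1.84% in activated CD8 T, 1.38% in other CD8 T, 2.36% in other T, 1.36% in NK and 3.75% in B cell-like cells. Genes with 50 to 200 UMIs were called more often. Their share was 2.46% in type 2 dendritic-like, 5.24% in activated CD8 T and 3.99% in other T cell-like cells. The called pairs of Ccl17, of Ccr8 and of Ccl1 in these classes lay in that range of UMIs.

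Ccr7 was compared in 10 classes and called in 0 of them. Taken as library 2 over library 1, its log2 ratio was -0.10 (-0.19 to -0.02) in migratory dendritic-like, -0.43 (-0.73 to -0.14) in conventional CD4 T and -0.19 (-0.35 to -0.02) in activated CD8 T cell-like cells, and the other 7 intervals included 0. Ccl22 was compared in migratory dendritic-like cells, at -0.16 (-0.31 to -0.01), and Ccl17 there at -0.76 (-1.08 to -0.46), neither past 2 times. In type 2 dendritic-like cells Ccl17 was called, at 1.71 (0.97 to 2.56). Without the cell with the most Ccl17 of each library it was 1.73 (0.33 to 3.62), and 10 cells of library 2 and 4 of library 1 had carried a UMI. Thinned to 3000 UMIs it was no longer called, at 1.21 (-0.36 to 3.16), nor was the ratio of the shares of thinned cells, at 1.37 (-1.91 to 7.45).

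Ccr8 was called in activated CD8 T cell-like cells, with 19 UMIs in library 2 and 76 in library 1 and a log2 ratio of -1.37 (-2.21 to -0.66). These UMIs were spread over 18 cells of library 2 and 68 of library 1. The class was shallower in library 2, with a median of 8287.5 UMIs against 10175 in library 1, and after thinning the share of cells with Ccr8 was 0.941% in library 2 and 2% in library 1. The ratio of these thinned shares was not called. In the other classes Ccr8 had under 50 UMIs and was not compared under the call rule. Its log2 ratio was -1.15 (-2.78 to 0.02) in regulatory T and -1.64 (-3.32 to -0.37) in other CD8 T cell-like cells, and the intervals in conventional CD4 T, other T and NK cell-like cells included 0. Over all kept cells, where 2.6% of genes were called, Ccr8 had 1.08 CPM in library 2 and 2.35 CPM in library 1, a log2 ratio of -1.11 (-1.55 to -0.71). Regulatory T cell-like cells were 2.18% of kept cells in library 2 and 3.6% in library 1, and their part in this value was not tested.

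Ccl1 was compared in 5 T and NK classes and called in 3. It was higher in library 2 in conventional CD4 T cell-like cells, at 3.31 (2.73 to 4.0), and in NK cell-like cells, at 6.02 (4.92 to 7.79), and lower in other T cell-like cells, at -1.90 (-3.27 to -0.87). Without the cell with the most Ccl1 of each library these became 2.90 (2.12 to 3.88), 3.41 (2.09 to 5.51) and -1.10 (-3.29 to 0.48), and the last was no longer called. As ratios of the shares of thinned cells with a UMI, none of the 3 was called, at 0.64 (-1.38 to 2.96) in conventional CD4 T, 2.31 (-0.27 to 8.30) in NK and -1.22 in other T cell-like cells. In activated CD8 T cell-like cells the log2 ratio was 0.90 (0.78 to 1.02), and in other CD8 T cell-like cells 0.10 (-0.35 to 0.55). Over all kept cells Ccl1 was called, with 43 CPM in library 2 and 19.7 CPM in library 1 and a log2 ratio of 1.13 (1.04 to 1.22). Ccr4 reached 50 UMIs in no class.

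**Figure D4:**
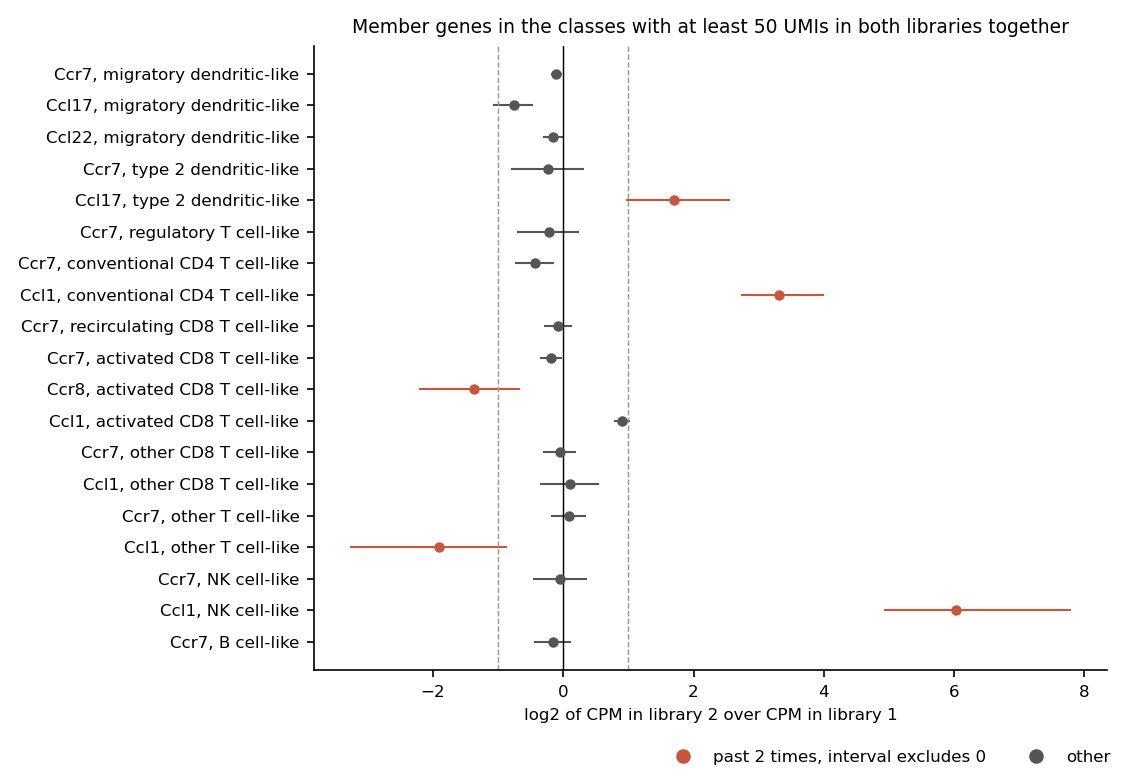
Log2 of the CPM in library 2 over that in library 1 (horizontal axis) with exact 95% intervals for the 19 gene and class pairs with at least 50 UMIs. Dashed lines mark 2 times in either direction, and red points are the 5 called pairs. The 10 Ccr7 points lie between -0.43 and 0.09.

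Few genes of the pathway lists were called between the libraries. Of 20 mature dendritic cell genes in migratory dendritic-like cells 1 was called, Tnfrsf4, which was higher in library 2 at 322 CPM against 152 CPM in library 1 (log2 1.08, 0.79 to 1.38), and their median log2 ratio was 0.13 beside 0.08 over all genes compared. Of 19 effector regulatory T cell genes in regulatory T cell-like cells 0 were called, with a median of 0.20 beside 0.05. In activated CD8 T cell-like cells 7 other T cell chemokine receptors could be compared and 0 were called. Their median was 0.44 beside 0.04. In recirculating CD8 T cell-like cells 9 recirculating T cell genes could be compared and 0 were called, with a median of -0.10 beside 0.06. Of 12 other T cell chemokine receptors 6 could be compared in conventional CD4 T cell-like cells and 1 was called, Cxcr6, with 483 CPM in library 2 and 230 CPM in library 1 (log2 1.07, 0.84 to 1.29). Of 13 genes for type 2 cytokines, their receptors and related inputs, 9 could be compared over all kept cells and 1 was called, Csf2, which encodes GM-CSF, a growth factor of dendritic cells, with 10.2 CPM in library 2 and 4.77 CPM in library 1.

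The other ligands of these receptors differed in how far they were present. Ccl19 had 0 UMIs in kept cells of library 2 and 2 in library 1, and Ccl21a had 1 in library 2 and 3 in library 1, and both are known as products mainly of lymphoid stromal cells. Ccl8, the second mouse ligand of Ccr8, had 59.6 CPM in library 2 and 40.2 CPM in library 1, with 361 CPM in macrophage-like cells of library 2 and 283 CPM in those of library 1. Of its kept UMIs, 33.2% in library 2 and 56.2% in library 1 were in macrophage-like cells, and 1.31% in library 2 and 1.56% in library 1 in the activated CD8 T cell-like cells that held the most Ccl1. Ccrl2, a non-signalling chemerin-binding receptor related to this family, was highest in neutrophil-like cells, at 1865 CPM in library 2 and 2900 CPM in library 1.

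The genes whose levels over the 15 classes were most like a member were ranked by the lower of the Pearson correlations of log2(CPM + 1) in the libraries, among 5280 genes with at least 50 CPM in some class of each library, as a description. For Ccl22 they were Strip2, Bcl2l14, Slc27a3, Apol7c (a gate gene of the migratory class) and Adam23, with r from 0.89 to 0.98 over both libraries. For Ccl17 the first was Ccl22 itself, with r of 0.89 in library 2 and 0.92 in library 1, then Adam23, Strip2, Rps27l and Bcl2l14. For Ccr4 they were Cd4 (the gate gene of the conventional CD4 class), Trat1, Penk, Il10 and Itgb8. For Ccr8 they were Penk, Neb, Sv2c, Sdf4 and Itgb8. Penk, the enkephalin precursor, and Itgb8, an integrin that releases active TGF-beta, thus stood in both lists. For Ccr7 they were Fchsd2, Stat4, Spint2, Kif21b and Cxcr5, the last a receptor for B cell follicles, with r from 0.78 to 0.88. Ccl1 had the weakest likeness, r from 0.66 to 0.76, with Tnfsf11, Rcn1, Nmb, Stk39 and Ifng. The classes share their library and differ in depth, so these values carry no p.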

How the data were processed

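Live CD45+ lung cells of 1 Siah1a/2 KO and 1 WT sample were measured by droplet 3' single-cell RNA-seq, and the deposited matrix holds whole-number UMI counts per gene and barcode, not normalized, made by the authors with Cell Ranger 6.1.2 on mm10, per the submitters' processing notes. The number of other per-sample columns not used was 0. Library 2 had 6479 barcodes with 59459790 UMIs, and library 1 had 8522 barcodes with 86227008 UMIs. Barcodes under 500 detected genes, or over 10% of UMIs from mitochondrial genes, were removed, and the others were assigned to classes by minimums on summed marker UMIs. No doublet caller was run, and barcodes that met gates of 2 lineages were set apart. The members, marker and gene lists were chosen with earlier results of these data known, and the gate minimums were set after the UMI distributions were seen.

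Counts were summed by class and library and scaled to CPM, with exact Poisson intervals for levels, exact Clopper-Pearson intervals for shares and exact conditional binomial intervals for ratios, all at 95%. UMIs are molecules of the captured RNA, and these intervals cover counting error only. For a ratio, 0.5 UMI was added to each sum as pseudocount, and a gene had to reach 50 UMIs over the pair of sums. No test across samples was possible with 1 library for each suffix, and no p-value was computed. The rule for named genes took the 6 members over the classes, with the levels of the 15 compared classes in the plot and the text giving those that its results turn on, the 5 genes most like each member by the lower correlation, and from the gene lists the counts and the largest ratios. Where other genes are named, the text says so. Coordinates are from GENCODE M21 on GRCm38, whose chromosomes are those of mm10. Alternatives changed the gates, the cell filter, the handling of barcodes of 2 lineages, depth, scaling, pseudocount and count minimum. For shares of cells, each cell was thinned to 3000 UMIs with a fixed seed. The ratio and thinning steps were tested on simulated data. Python 3.11.15, numpy 2.4.6, scipy 1.17.1, pandas 2.3.3 and matplotlib 3.10.9 were used. Values of some genes of the lists are not reported here.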

Additional observations from a re-analysis of the deposited data

Results flagged for a closer look

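Some UMIs lay in barcodes outside the classes. Barcodes that the cell filter left out held 76 Ccr7 UMIs in library 2 and 71 in library 1, 18 Ccl1 UMIs in library 2, 89 Ccl17 UMIs in library 2 and 68 in library 1, and 42 Ccl22 UMIs in library 2 and 16 in library 1. These are above the limit that a count of 0 allows, and for Ccl17 they are the largest share of a member's UMIs.

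Barcodes with gates of 2 lineages held 784 Ccr7 UMIs in library 2 and 976 in library 1, 9 Ccr4 UMIs in library 2 and 25 in library 1, and 12 Ccr8 UMIs in library 2 and 22 in library 1. For the ligands they held 690 Ccl1 UMIs in library 2 and 466 in library 1, 27 Ccl17 UMIs in library 2 and 23 in library 1, and 175 Ccl22 UMIs in library 2 and 120 in library 1. Most of their Ccl1, 684 UMIs in library 2 and 463 in library 1, was in barcodes that met a T cell gate and a macrophage, monocyte or dendritic gate.

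The log2 ratio of library 2 over library 1 had opposite signs between classes for Ccl1 and Ccl17, and the difference was not tested. For Ccl1 it was 3.31 in conventional CD4 T, 0.90 in activated CD8 T, 6.02 in NK and -1.90 in other T cell-like cells. For Ccl17 it was 1.71 in type 2 and -0.76 in migratory dendritic-like cells.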

How the results depend on the processing

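No paired analysis was possible because there is 1 library for each barcode suffix and no label pairs samples. Of 209 recomputed ratios between libraries 198 stayed on their side of the call rule, and of 112 ratios between classes 109 did. The sign changed in 24 of the ratios between libraries, 0 of them called, and in 0 of those between classes. With the share of thinned cells in place of summed UMIs, the log2 ratio was -1.04 for Ccr8 in activated CD8 T, 0.64 for Ccl1 in conventional CD4 T, 2.31 in NK and -1.22 in other T cell-like cells, and 1.37 for Ccl17 in type 2 dendritic-like cells, none called. Thinned to 3000 UMIs, Ccl17 was called at -1.0 in migratory and not called at 1.21 in type 2 dendritic-like cells. With barcodes of 2 lineages kept, Ccl1 was called at 1.01 in activated CD8 T and not called at -0.78 in other T cell-like cells, where it was -1.10 without the top barcode. With each gate 1 UMI higher, Ccl1 was called at 1.02 in other CD8 T cell-like cells. In library 2 Ccr8 in regulatory over activated CD8 T cell-like cells was 1.43 without the top barcode, 1.24 with barcodes of 2 lineages kept and 1.84 thinned, each with an interval that includes 0. The cause was not tested.

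The number of genes called moved with depth and with the count minimum. Thinned, with a minimum of 20 UMIs and with no minimum, it was 51, 389 and 559 in migratory dendritic-like (149 as reported), 36, 296 and 422 in type 2 dendritic-like (114 as reported), 51, 345 and 518 in conventional CD4 T (128 as reported), 114, 365 and 523 in activated CD8 T (206 as reported), 92, 412 and 566 in other T (212 as reported) and 80, 303 and 457 in NK cell-like cells (146 as reported). In other T cell-like cells it was 126 with each gate 1 UMI lower and 131 with barcodes of 2 lineages kept.

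Shares of thinned cells, the top barcode left out and the barcode sequences of both libraries left out were alternatives chosen after seeing the data. Beyond its counting interval, thinning moved 43 of 180 levels, keeping barcodes of 2 lineages 51 and leaving out the top barcode 37. Scarce receptors limit what depth can show: Ccr4 reached the minimum in no class.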
